A study of Homo sapiens with 1 sample.

Results

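The 5p arms of the human miRNAs numbered miR-6726 to miR-6895 were described in DLD-1, a cell line from a human colorectal carcinoma. Members were chosen by name alone, as entries of the array that carry a number in this range and end in -5p. There were 167 members among the 2549 human miRNAs measured, and the other 2382 served as background. The cells, grown in RPMI medium with fetal bovine serum, had received the negative control plasmid pLVX-NC, the empty counterpart of a circLONP2 overexpression plasmid. The data came from 1 array of 1 culture condition, so neither a replicate nor a second condition was compared. The array of circLONP2-overexpressing cells was not analysed here.

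A mirtron is a miRNA precursor made from a short intron. Once spliced and debranched, the intron folds into a hairpin that Dicer can cut, so the step in which Drosha and DGCR8 free a hairpin from its primary transcript is bypassed. Because the hairpin is the intron itself, its 3p end lies at the splice acceptor, where introns end in AG after a pyrimidine-rich stretch, and the 5p arm that pairs with this stretch is rich in purines. The duplex is loaded into Argonaute, which keeps 1 arm, and the seed of this arm, bases 2 to 8, guides the pairing with target mRNAs.

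The name mirtron was checked against the hairpins that RefSeq holds for this number range (build GRCh38.p14). Of these 152 hairpins, 144 (94.7%) ended in the letters AG, read on the transcribed strand, against 119 of 1408 other human hairpins (8.45%). They were also short, with a median of 66.5 bases (quartiles 63 and 71) against 82 bases for the others. A protein-coding gene covered 145 of them (95.4%) and 844 of the others (59.9%), from gene extents without regard to strand. Ends at both splice sites were not compared, since introns were not used here. Among members with a sequence, 22 lay on chromosome 19, 19 on chromosome 1 and 15 on chromosome 17.

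Mature sequences from RefSeq were matched for 142 of the 167 members. The sequences of 7 of the 10 brightest members are shown first because the later results turn on their base composition, with the seed in capitals.
miR-6785-5p: uGGGAGGGcguggaugauggug
miR-6740-5p: aGUUUGGGauggagagaggaga
miR-6887-5p: uGGGGGGAcagauggagaggaca
miR-6833-5p: gUGUGGAAgaugggaggagaaa
miR-6749-5p: uCGGGCCUgggguugggggagc
miR-6869-5p: gUGAGUAGuggcgcgcggcggc
miR-6829-5p: uGGGCUGCugagaaggggca
The other members among the 10 brightest were miR-6893-5p, miR-6769b-5p and miR-6821-5p. The hairpin of miR-6785-5p lies at chr17:75498548-75498628 on the plus strand, within the extent of TMEM94. That of miR-6740-5p lies at chr1:202003124-202003236 (plus strand) within RNPEP, which encodes aminopeptidase B. The hairpin of miR-6887-5p, chr19:35122700-35122764 (plus strand), is within FXYD3, which encodes a regulator of the sodium pump. miR-6833-5p comes from chr6:32179816-32179876 (plus strand) within RNF5, a ubiquitin ligase gene. miR-6749-5p comes from chr11:64902387-64902455 (minus strand) within ATG2A, an autophagy gene. miR-6869-5p lies at chr20:1392900-1392961 (minus strand) within FKBP1A, the gene of an FK506-binding protein, and miR-6829-5p at chr3:195882329-195882395 (minus strand) within TNK2, a tyrosine kinase gene. Guanine made up 50% to 59.1% of the bases of these 7 miRNAs.

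Every member was read by 20 spots, spread over 2 probes for 157 members and over 3 probes for 10. Of the 3340 spots, 189 (5.66%) were marked as outliers and left out, against 3.95% of the spots of other human miRNAs. The median SD between spots of a probe was 0.109 (log2) in the 310 probes of detected members. In 2953 probes of other detected miRNAs it was 0.153. These SDs describe error within the array. Different miRNAs are read by different probes, so the order of values below is one of brightness and not of RNA amount.

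As a check of the cell line, 6 of 8 miRNAs typical of epithelial or intestinal cells were detected. The share over all human miRNAs was 56.8%. Of the epithelial miR-200 family, miR-141-3p was brightest at 3024, and the others listed ran from 18.3 (miR-200a-3p) to 85.3 (miR-200c-3p). The intestinal miR-192-5p and miR-194-5p were not detected, and the intestinal miR-215-5p was detected at 45.9. Of 12 miRNAs typical of blood, muscle, liver, brain or stroma, 6 were detected, up to the neuronal miR-124-3p with a mean brightness of 77.2, close to the 81.2 of miR-200b-3p. The count of 6 of 12 lay near the share over all human miRNAs, so detection alone is a weak check.

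On the DLD-1 control array, 151 of the 167 members carried the software's Detected flag, which is 90.4% (95% Wilson interval 85.0% to 94.0%). The share was 56.8% over all human miRNAs and 54.5% over those outside the member list. The 3p arms in the same number range were the nearest comparison, and 70 of 167 (41.9%, interval 34.7% to 49.5%) were detected. The difference between the arms was 48.5 percentage points (interval 39.2 to 56.6, counting error only). This interval treats the arms as separate sets and does not use their pairing by hairpin. Most detected members were seen by nearly all of their spots. In 128 of the 151 every spot kept was well above background, in 14 fewer than 0.5 of the spots were, and in 3 none was.

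The members were also brighter as a group. Their mean brightness had a median of 113 (quartiles 36.6 and 330.0), against 12.3 (quartiles -0.16 and 66.5) for the other human miRNAs and 5.81 for the 3p arms. A negative brightness means a spot dimmer than its surroundings. The log2 signal was set to 0 at a brightness of 249, the 75th percentile over detected probes, and its median was -1.23 for the members, -4.55 for the others and -5.82 for the 3p arms. The member median thus lay 3.32 above that of the others on the log2 scale. The others' median brightness was near the 99th percentile of the array's negative control spots, 12.5, so the size of this difference depends on background subtraction. Among detected miRNAs alone the member median lay 1.23 above, with medians of -1.02 and -2.26. A mean brightness above 100 was seen for 90 members (53.9%) and 466 others (19.6%), and above 1000 for 15 members (8.98%) and 90 others (3.78%). With 1 array none of these differences was tested.

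**Figure D1:**
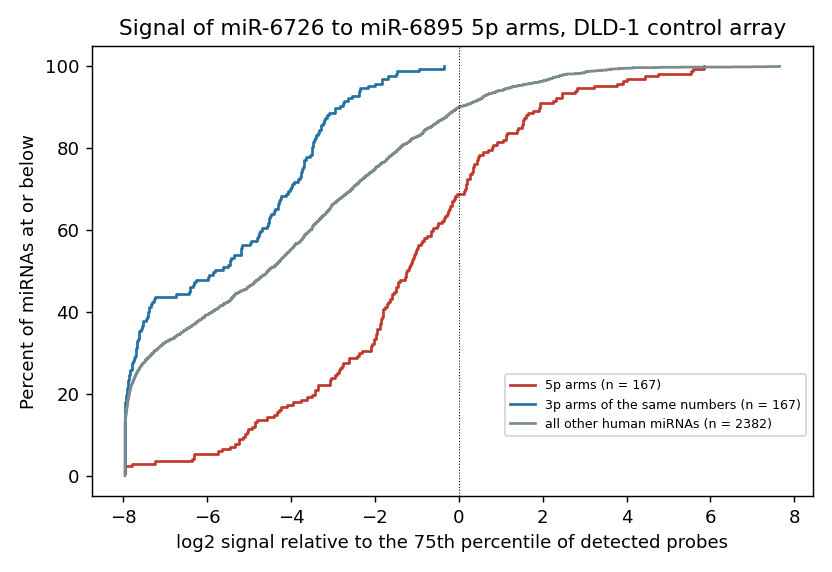
Cumulative share of miRNAs (percent, vertical axis) at or below a given log2 signal (horizontal axis, 0 and the dotted line being the 75th percentile over detected probes) for the 167 5p arms, the 167 3p arms of the same numbers and all 2382 other human miRNAs. The curve of the 5p arms lies to the right of both others over most of the range, with medians of -1.23, -5.82 and -4.55, while the highest signal belongs to another miRNA.

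Among the 100 human miRNAs of highest signal, 15 were members, which is 8.98% of the members, while 3.92% of all human miRNAs are in that list by construction. No 3p arm of the range was among them. Of the 10 brightest human miRNAs, 4 were members, and of the 20 brightest 7 were. The members carried 17.6% of the total signal summed over all detected human miRNAs. The 4 brightest human miRNAs, none of them a member, carried 26.3%, and without these the share of the members was 23.8%. Within the members the signal was uneven, since the 10 brightest held 65.0% of the members' sum.

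The brightest member was miR-6785-5p, with a mean brightness of 14399.5 ± 587 (SD over 20 spots), rank 5 among all human miRNAs. Its spots ran from 13505 to 15437, and its 2 probes had means of 14002 and 14797. miR-6893-5p followed with 12020.5 ± 224 (16 spots) and miR-6740-5p with 11529.6 ± 370 (16 spots). The spots of this pair overlapped, from 11525 to 12518 for the first and from 10839 to 12261 for the second, whereas those of miR-6785-5p lay above both. After a wider gap came miR-6887-5p at 6734 ± 639 (19 spots) and miR-6769b-5p at 5452 ± 436 (19 spots), whose spots also overlapped. The lowest spot of miR-6769b-5p, at 4416, lay within the range of the next member, and its other spots lay above it.

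The next members lay lower. miR-6821-5p had a mean brightness of 4073 ± 535 (19 spots), and this spread came mainly from its probes, with means of 3532 and 4559. miR-6833-5p was at 3754 ± 114 (16 spots) and miR-6749-5p at 3385 ± 186 (19 spots). The spots of miR-6833-5p fell within the range of miR-6821-5p, from 3442 to 4737, and those of miR-6749-5p overlapped with both. miR-6869-5p at 2338 ± 190 (20 spots) and miR-6829-5p at 1757.5 ± 135 (20 spots) did not overlap with each other or with those above. The other 5 members among the 100 brightest were miR-6774-5p, miR-6780b-5p, miR-6772-5p, miR-6867-5p and miR-6879-5p, with mean brightness values between 1175 and 1942. The order follows the mean log2 signal, by which miR-6774-5p, whose probes had means of 1035 and 2850, came after miR-6829-5p.

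**Figure D2:**
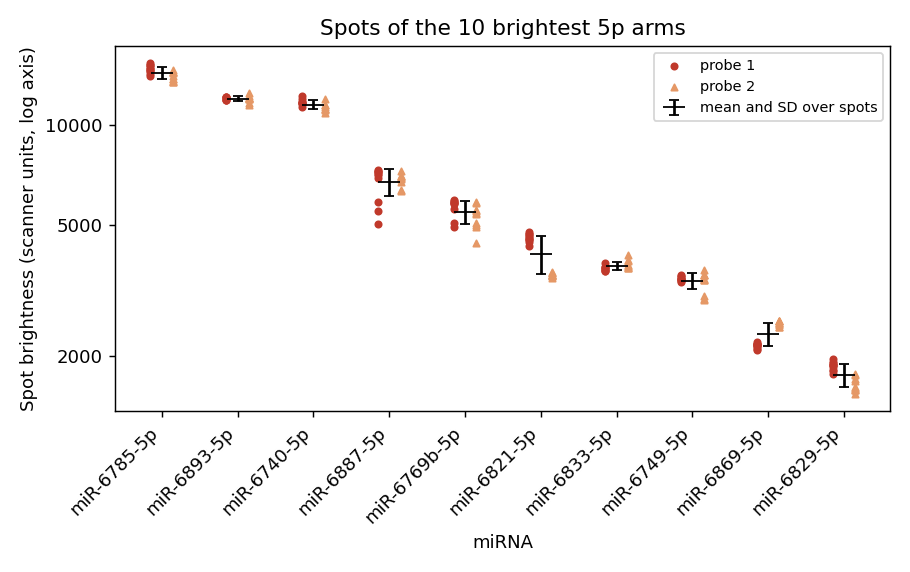
Brightness of every spot kept (scanner units, log axis) for the 10 brightest 5p arms, with circles and triangles for the 2 probes of each miRNA and a bar for the mean and SD over spots. The values fall from 14399.5 for miR-6785-5p to 1757.5 for miR-6829-5p, and the spots of the 2 probes do not overlap in miR-6821-5p, miR-6869-5p and miR-6829-5p.

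For scale, the brightest miRNAs outside the members were miR-7975 with a mean brightness of 53805, miR-4459 with 41641, miR-494-3p with 31638, miR-7977 with 23474 and miR-8069 with 10071. The first 4 exceeded every member, and miR-8069 ranked just below miR-6740-5p.

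At the other end, 16 members were not detected. They were miR-6733-5p, miR-6755-5p, miR-6761-5p, miR-6770-5p, miR-6773-5p, miR-6783-5p, miR-6811-5p, miR-6816-5p, miR-6840-5p, miR-6841-5p, miR-6842-5p, miR-6854-5p, miR-6855-5p, miR-6883-5p, miR-6888-5p and miR-6895-5p. Their mean brightness ran from -3.70 to 9.86, and 15 of them had no spot well above background. The dimmest detected members fell in the same range. miR-6866-5p had a mean brightness of 8.52 ± 6.69 (17 spots), miR-6864-5p of 8.92 ± 6.29 (20 spots) and miR-6731-5p of 7.50 ± 5.41 (19 spots), with 0, 1 and 0 spots well above background. Mean brightness thus did not separate these from the members not detected. Their brightest probes had means of 15.7, 14.5 and 12.3, against at most 11.2 (miR-6773-5p) in members not detected.

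The 1000 negative control spots gave a level to read the dim members against, and their 99th percentile was 12.5. For 13 of the 151 detected members (8.61%) the brightest probe was less than 2-fold above this level, compared with 298 of 1297 other detected miRNAs (23.0%). The count rose to 30 with a margin of 4-fold and to 49 after normexp background correction. The latter applied the 2-fold margin to values raised by an offset of 50, which narrows ratios, so it is a wider margin in brightness.

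The limits of the number range were set by name and not by signal. Just inside, miR-6726-5p had a mean brightness of 81.1 ± 17.5 (20 spots) and miR-6895-5p of 3.70 ± 3.78 (19 spots). Just outside, miR-6724-5p was at 1021 ± 68.8 (17 spots) and miR-7106-5p at 360.3 ± 21.6 (19 spots), both above these 2 members.

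Both arms were on the array for 166 of the hairpins, so each 5p arm could be set beside its own partner. In 153 hairpins (92.2%) the 5p arm was the brighter, and the median difference, 5p minus 3p, was 4.18 on the log2 scale (quartiles 2.48 and 6.51). In 96 of the 166 the 3p arm was not detected, and its low signal enters this median. In 644 other human hairpins with both arms measured, the 5p arm was brighter in 325 (50.5%), with a median difference of 0.01. Both arms were detected in 67 member hairpins, the 5p arm alone in 83, the 3p arm alone in 3 and neither in 13. Where both were detected, the 5p arm was brighter in 61 of 67 member hairpins (91.0%) and in 107 of 188 others (56.9%), with median log2 differences of 2.85 and 0.45. Each arm is read by its own probes, so these are differences of brightness.

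**Figure D3:**
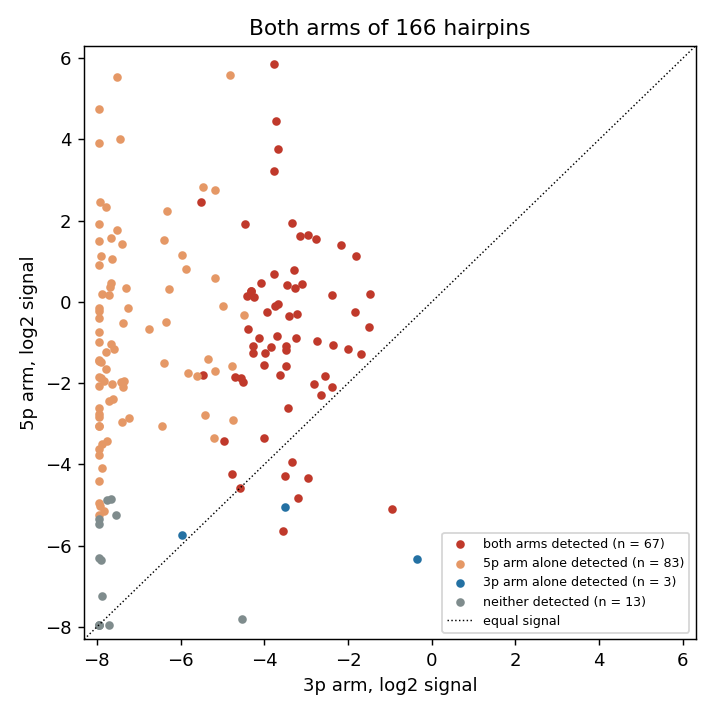
log2 signal of the 5p arm (vertical axis) against that of the 3p arm (horizontal axis) for 166 hairpins, colored by which arms were detected, with a dotted line of equal signal. Most points lie above the line, and 83 hairpins have the 5p arm alone detected. The points at the left edge are 3p arms at or near the lower limit of brightness.

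Among hairpins with both arms detected, the widest differences toward the 5p arm were in miR-6785, miR-6769b and miR-6772. For miR-6785 the 5p arm had a mean brightness of 14399.5 and the 3p arm of 19.0 ± 6.41 (19 spots), a log2 difference of 9.62. For miR-6769b the values were 5452 and 19.1 ± 2.29 (19 spots), with a log2 difference of 8.17. For miR-6772 they were 1363 ± 216 (18 spots) and 12.2 ± 13.1 (20 spots), and the log2 difference was 7.95. In all 3 hairpins the dim 3p arm lay near the negative control level, so the size of the difference depends on background subtraction.

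The 3p arm was brighter in 10 hairpins, and 3 more had both arms at the lower limit. Among hairpins with both arms detected, the widest differences of this kind were in miR-6766, miR-6731 and miR-6885. miR-6766-5p had a mean brightness of 15.0 ± 13.8 (18 spots) against 128 ± 5.17 (18 spots) for miR-6766-3p, a log2 difference of -4.14. miR-6731-5p was at 7.50 and miR-6731-3p at 21.9 ± 5.198 (20 spots), a log2 difference of -2.09. miR-6885-5p was at 9.99 ± 4.596 (20 spots) and miR-6885-3p at 48.0 ± 40.5 (20 spots), a log2 difference of -1.63. The 5p arm was at or near background in these hairpins, with 0 of 19 spots well above background for miR-6731-5p, 1 of 20 for miR-6885-5p and 9 of 18 for miR-6766-5p, so the sizes of the differences depend on background subtraction. The arms of a hairpin of each kind are shown to compare their bases, with the seed in capitals.
miR-6772-5p: uGGGUGUAggcuggagcugagg
miR-6772-3p: uUGCUCCUgacucugugcccaca
miR-6766-5p: cGGGUGGGagcagaucuuauugag
miR-6766-3p: uGAUUGUCuucccccacccuca
In both hairpins the 5p arm had more G than the 3p arm, 54.5% against 17.4% for miR-6772 and 41.7% against 9.09% for miR-6766, yet the brighter arm was the 5p arm in the former and the 3p arm in the latter.

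Base composition set the members apart from the other miRNAs more than length did. The median share of G was 50% in the 142 members with a sequence, 14.3% in 148 of the 3p arms and 26.1% in 2106 of the other human miRNAs. The share of C ran the other way, with medians of 14.3% in the members and 45.5% in the 3p arms. As a result the combined share of G and C was alike in both arms, with medians of 61.9% and 60.9%. Median length was 22 bases in the members and 21 in the 3p arms. A run of 4 G (GGGG, searched on the RNA strand only) was present in 67 of the 142 members (47.2%), against 9.59% of the other human miRNAs and 1 of the 148 3p arms. The 3p arms in turn ended in AG in 115 of 148 cases (77.7%), as did 9 of the 142 members.

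Within the members, those with more G were brighter. Across the 142 members Pearson's r between the share of G and the log2 signal was 0.52 and Spearman's rho was 0.51, and over the 131 detected members r was 0.40. For the share of C r was -0.34, and for G and C combined 0.23. Across the 2106 other human miRNAs r was 0.56 with the share of G, 0.44 with G and C combined and -0.52 with the share of U. In 148 of the 3p arms of the same numbers r was 0.10 with G, 0.56 with G and C combined, 0.45 with C and -0.55 with U. The r with G was thus lower in the 3p arms than in the members, and this difference was not tested. These correlations are across miRNAs of 1 array, which share labelling and hybridization, and they are descriptions without a test. In 127 of 135 member hairpins with both sequences the brighter arm was the arm with more G. Since the 5p arm had more G in 133 of these 135, this count largely repeats that the 5p arm was brighter. In other hairpins the brighter arm had more G in 363 of 545 (66.6%). In the 309 other hairpins with more G in the 5p arm, that arm was brighter in 209 (67.6%).

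**Figure D4:**
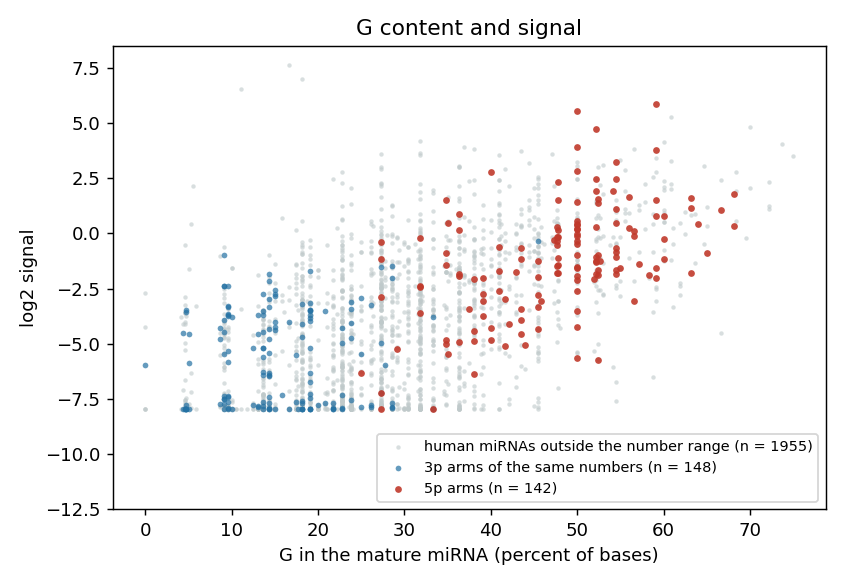
log2 signal (vertical axis) against the share of G in the mature miRNA (percent of bases, horizontal axis) for 142 of the 5p arms, 148 of the 3p arms and 1955 human miRNAs outside the number range. The 5p arms cluster around a median of 50% G and the 3p arms around 14.3%, and the signal is higher at higher G in the 5p arms (r = 0.52).

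The members were then set beside other miRNAs of like G content. Among miRNAs with at least 40% G, 107 of 109 members (98.2%) and 345 of 372 others (92.7%) were detected, with median log2 signals of -0.89 and -0.81. In this class, which holds most members, the pooled medians were close, but in narrower classes they differed in both directions. Above 40% and up to 45% G they were -2.95 for members and -1.24 for others. Above 45% and up to 50% G they were -0.50 and -0.90. Above 50% and up to 60% G they were -0.67 and -0.18, and above 60% G 0.74 and 0.93. Among miRNAs with under 40% G, 24 of 33 members (72.7%) and 803 of 1734 others (46.3%) were detected, with medians of -2.90 and -5.52. In the narrower class above 20% and up to 30% G, 3 of 7 members (42.9%) and 295 of 616 others (47.9%) were detected. Above 30% and up to 35% G it was 9 of 12 members (75%) and 164 of 262 others (62.6%). The next class includes miRNAs at exactly 40% G, which were also counted in the pooled class of at least 40%. Above 35% and up to 40% G it was 15 of 17 members (88.2%) and 139 of 186 others (74.7%). The members' share was thus lower in the first of these 3 classes and higher in the others, with overlapping Wilson intervals in each. Median log2 signals of members and others were -5.24 and -5.45 in the first, -2.41 and -3.86 in the second, and -3.06 and -2.68 in the third. A class up to 20% G held 683 others, with a median of -7.42, and no member. The pooled medians under 40% G thus compare sets of unlike G content. Labelling, probe binding and RNA amount cannot be told apart on 1 array, and the part of G content in the brightness of the members was not tested.

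**Figure D5:**
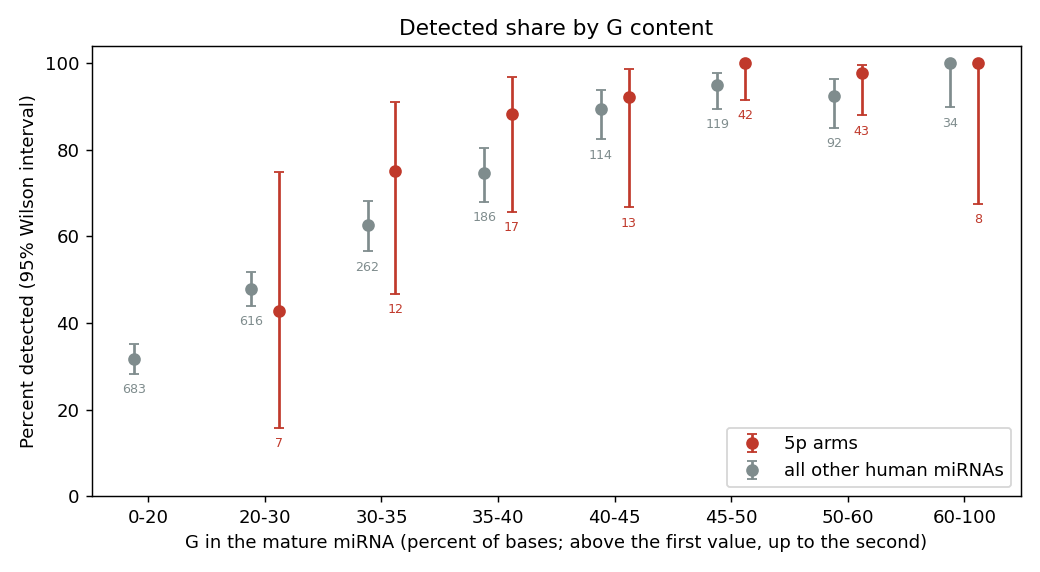
Share of miRNAs detected (percent, vertical axis, with 95% Wilson intervals for counting error) by class of G content (horizontal axis, percent of bases, the lowest class including 0) for the 5p arms and all other human miRNAs, with the number of miRNAs under each interval. The share rises with G up to the class of 45 to 50% in both sets and is above 90% beyond it, and the intervals of both overlap in every class that holds members.

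Seeds were mostly distinct among the members. The 142 sequences held 132 different seeds, of which 9 were shared, 1 by 3 members and 8 by pairs. The letters GGG were in the seed of 94 members (66.2%) and of 12.5% of the other human miRNAs. Between the brightest and the dimmest member of a shared seed the log2 signal differed by 0.52 to 7.02, with a median of 2.61 over the 9 seeds, and in 4 of the 9 by less than 2. The 7.02 involved miR-6733-5p, which was not detected and had a mean brightness of 1.17. Where all members of a seed were detected, the widest difference was 4.84. The groups below, the group of 3 and then the pairs of highest signal, are shown as examples, with the seed in capitals.
miR-6812-5p: aUGGGGUGagauggggaggagcagc
miR-6819-5p: uUGGGGUGgagggccaaggagc
miR-6737-5p: uUGGGGUGgucggcccuggag
miR-6887-5p: uGGGGGGAcagauggagaggaca
miR-6795-5p: uGGGGGGAcaggaugagaggcugu
miR-6803-5p: cUGGGGGUggggggcugggcgu
miR-6751-5p: uUGGGGGUgagguuggugucugg
miR-6889-5p: uCGGGGAGucugggguccggaau
miR-6777-5p: aCGGGGAGucaggcaguggugga
In the group of 3, miR-6812-5p had a mean brightness of 773 ± 122 (18 spots), miR-6819-5p of 612 ± 265 (19 spots) and miR-6737-5p of 130.2 ± 28.3 (20 spots). The first 2 of these differed by less than the SD of miR-6819-5p. miR-6887-5p at 6734 was brighter than miR-6795-5p at 959 ± 84.0 (18 spots). miR-6803-5p at 868 ± 101 (18 spots) stood above miR-6751-5p at 30.6 ± 6.43 (19 spots), although both hold over 50% G. miR-6889-5p at 726 ± 65.0 (18 spots) stood above miR-6777-5p at 70.2 ± 11.8 (18 spots).

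The seed of the brightest member, miR-6785-5p, was also found in miR-4728-5p and miR-149-3p, which lie outside the number range. Their mean brightness was 741 ± 369 (20 spots) and 50.2 ± 14.6 (20 spots). miR-149-3p had the most G of the 3, 61.9%, and the lowest signal.

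The probes of a member did not always give the same value. Every spot was well above background in 126 members. Between their dimmest and brightest probes the gap exceeded 2 standard errors in 91, and in 17 (13.5%) it exceeded 1 on the log2 scale. Among 812 other miRNAs that met the same condition the latter share was 13.4%. Among these 126 the widest gap was in miR-6736-5p, whose probes had mean brightness values of 34.8 ± 6.98 (10 spots) and 885 ± 19.6 (8 spots), a log2 difference of 4.70 (standard error 0.10). miR-6779-5p followed with 41.3 and 218 and miR-6758-5p with 46.8 and 184.8, and their log2 differences were 2.42 and 2.01. For these 3 members the mean over probes describes neither probe. Outside the 126, wider log2 gaps of 5.76 in miR-6813-5p, 5.40 in miR-6742-5p and 5.07 in miR-6764-5p had a dim probe with a mean brightness of 2.03, 1.59 and 0.62, below the negative control level. These 3 were chosen after their values were seen. The sequence of miR-6736-5p is shown because its probes disagreed most among members with every spot well above background.
miR-6736-5p: cUGGGUGAgggcaucuguggu

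The log2 values that the authors deposited for the array gave a like picture of the members. Their median was 4.97 (quartiles 3.42 and 6.65) in the members and 2.33 in the other human miRNAs. The 16 members not detected held the lowest value of the file, 2.32, and 9 detected members held 2.33, the lowest value of any detected miRNA. The median of the other human miRNAs was this same value. Among the members the highest was 12.97 for miR-6785-5p, and 9 of the 10 brightest members by spot signal were also among the 10 members with the highest deposited values. The file's highest value, 15.50, belonged to miR-7975.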

How the data were processed

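The miRNAs of DLD-1 cells carrying the negative control plasmid were measured on 1 array. The deposited scanner output holds spot intensity on a linear scale, extracted with Agilent Feature Extraction 11.0.1.1 in the Cy3 channel, and the processed intensity has the local background subtracted. Quantile normalized log2 values from GeneSpring GX were deposited as well. Labelling is described in the labels as dye ligation to miRNA and in the methods as labelled cDNA.

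After removal of control and outlier spots, a floor of 1 was applied to brightness. Each probe took the mean log2 of its spots, and each miRNA the mean of its probes. The 75th percentile of detected probes was subtracted. Detection was the flag set by the software for each miRNA. A total signal is the sum that the software makes over the probes of a miRNA. Sequences, hairpin coordinates and gene extents came from RefSeq (GRCh38.p14). Wilson intervals (95%) cover counting error only, and 1 array limits the precision, so no p-value is given.

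The members were picked by name alone, but this rule and the lists were set with earlier results of these data known. The rule for named miRNAs took the 10 brightest and the 3 dimmest detected members, the 3 widest arm differences in each direction, 4 groups with a shared seed, the 3 widest probe differences and the 5 brightest other miRNAs. Alternatives covered detection, background correction (normexp of limma 3.58.1 in R 4.3.3, offset 50, on median spot signals since mean signals were not used here), outliers, summary, scaling and deposited values. The computation used Python 3.11.15, numpy 2.4.6, pandas 2.3.3 and scipy 1.17.1. The signal summary was tested on simulated data in which all probes of a miRNA shared a true value above the brightness floor. Probe disagreement and values at the floor were thus not covered.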

Additional observations from a re-analysis of the deposited data

How the results depend on the processing

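The count of members detected ran from 135 to 161 under the other detection criteria, and the gap to the 3p arms from 40.1 to 53.9 percentage points. The count of members among the 100 brightest miRNAs was 15 under every alternative tried. Among these alternatives, restriction to detected miRNAs could not be expected to change a list this bright. The member median above the others, 3.32, was 1.21 after normexp correction, whose offset narrows ratios, 3.06 with the brightest probe, 3.75 with total signals, 2.64 with the deposited values and 1.23 over detected miRNAs alone. Among hairpins with both arms detected, 61 of 67 had the brighter 5p arm, and otherwise the count was 143 to 154 of 166. The correlation with G content was 0.40 over detected members, and 0.43 to 0.52 otherwise. The median signal of detected members, -1.02, became 0.77 with the percentile over all probes, a lower reference. Members close to background numbered 30 with a margin of 4-fold, 49 after normexp correction, and 17 against the lowest probe well above background. The remaining causes were not tested. A difference in r of over 0.1, and a count beyond 1.5 times, was taken as a change. The detection criteria for the earlier mirtrons, giving 14 to 19 of 22 entries, were added after seeing the data. The comparison of hairpins with introns was not run. No pairing of samples was possible because a single array was analysed, while the arms were paired by hairpin. Brightness near the negative control level limits what the dim arms can show.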

Other observations

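Earlier numbered miRNAs that have been described as mirtrons were also looked at, and their route was not checked here. The list held miR-877 and miRNAs numbered from miR-1224 to miR-1238. All 11 of their 5p arms on the DLD-1 control array were detected, and so were 7 of their 10 3p arms, while 1 entry without an arm, miR-1231, was not. The share over all human miRNAs was 56.8%. These 5p arms held 47.8% to 66.7% G, and 92.7% of miRNAs outside the members with at least 40% G were detected. The median log2 signal was -0.52 for the 5p arms and -3.82 for the 3p arms. The brightest was miR-1225-5p, at 1713 ± 85.5 (mean brightness and SD, 19 spots), and it holds 59.1% G. miR-877-5p was at 91.0 ± 40.4 (20 spots).

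The miRNAs numbered miR-7106 to miR-7114 are the next on the array above the range. Of these, 8 of 9 5p arms and 5 of 9 3p arms were detected, with median log2 signals of 0.49 and -4.89. The share detected over all human miRNAs was 56.8%.

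Entries that share a number but differ by a letter had unlike signals. miR-6769a-5p had a mean brightness of 223 ± 16.9 (17 spots) against 5452 for miR-6769b-5p, and miR-6780a-5p had 226 ± 70.6 (18 spots) against 1373 ± 208 (18 spots) for miR-6780b-5p. The 4 entries of the range without an arm in their name were no members, and 3 of them were detected.

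The 25 members without a matched sequence were left out of the results on base composition. Of these 20 were detected (80.0%), against 131 of the 142 with a sequence (92.3%), and their median log2 signal was -1.05 against -1.25.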
